A study of Homo sapiens with 4 samples.

Results

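The enzymes that write and erase N6-methyladenosine (m6A) are themselves encoded by mRNAs that can carry the mark, and 10 of these genes were followed in the m6A peak lists of RWPE1 cells. They were the erasers FTO and ALKBH5, the catalytic pair METTL3 and METTL14, and 6 regulatory subunits of the writer complex, namely WTAP, RBM15, RBM15B, VIRMA, ZC3H13 and CBLL1. A peak belonged to a gene when it overlapped the gene's hg19 locus, given in whole kb, on the gene's strand. The 5′ and 3′ limits named below are the edges of these loci and not the ends of the transcripts. By this rule 10 of 10087 peaks in the control list and 15 of 10323 peaks in the FTO knockdown list lay in the 10 loci.

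RWPE1 is a line of human prostate epithelial cells immortalized with papillomavirus. The 2 groups were RWPE1 cells carrying a control vector (shCtrl) and RWPE1 cells carrying a lentiviral shRNA against FTO (shFTO), and no further treatment is given in the labels. MeRIP-seq uses an m6A antibody to enrich methylated RNA fragments (IP), and peaks are regions where reads from this IP library exceed those of the input RNA. There was 1 IP and 1 input library per condition, so no difference between shFTO and shCtrl cells could be tested, and all values below describe these 2 lists.

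Within the writer complex, METTL3 transfers the methyl group and METTL14 holds the RNA substrate. WTAP and VIRMA form the scaffold that brings this pair to mRNA, RBM15 and RBM15B bind RNA and recruit the complex, ZC3H13 anchors it in the nucleus, and CBLL1 (also called HAKAI) is an E3 ubiquitin ligase that associates with it. FTO and ALKBH5 are dioxygenases that take the methyl group off again. FTO also acts on m6Am, the methylated adenosine that can stand next to the mRNA cap and that m6A antibodies recognize as well.

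In shCtrl cells 4 of the 10 genes had at least 1 peak, and in shFTO cells 8 of the 10 did. FTO, METTL14, WTAP and VIRMA had peaks in both lists. ALKBH5, METTL3, ZC3H13 and CBLL1 had peaks in the shFTO list alone, and 0 genes had peaks in the shCtrl list alone. RBM15 and RBM15B had no listed peak in either condition. The share of all genes with a peak in each list was not determined, so these counts cannot be called particular to the 10 genes. Over the whole lists, 79.8% of shCtrl peaks and 80.4% of shFTO peaks overlapped no peak of the other list. ZC3H13 contributed 5 of the 15 knockdown peaks, and without it each list held 10. No peak of either list lay on the opposite strand of any of the 10 loci. In RefSeq, genes on the opposite strand overlap WTAP (SOD2), METTL3 (TOX4), CBLL1 (CBLL1-AS1) and FTO (a lncRNA gene). The assignment of peaks in these loci rests on the strand given in the lists.

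**Figure D1:**
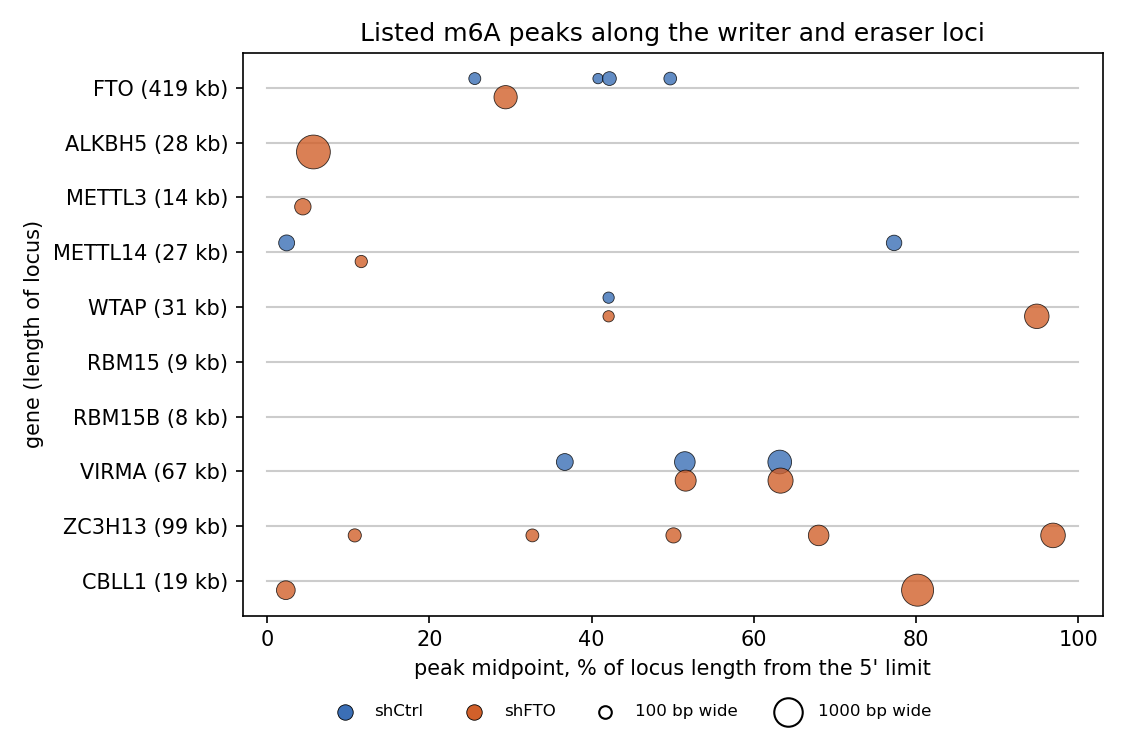
Listed m6A peaks along the 10 loci. The horizontal axis gives the midpoint of each peak as % of the locus length from its 5′ limit, each line is 1 gene with the length of its locus in kb, blue circles above a line are shCtrl peaks, orange circles below it are shFTO peaks, and the circle area grows with peak width. Blue circles are present on 4 lines and orange circles on 8, with the 5 peaks of ZC3H13 spread from 10.8% to 96.9% of its locus.

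Beside each peak, its score and its rank are given. The score is the authors' own and its scale is not stated in the sources used here. It ran upward from 50.03 (shCtrl) and 50.05 (shFTO), with many peaks at exactly 3100, and was not compared between lists. The rank is the percentage of peaks in the same list with a lower score, with tied peaks sharing their mean rank. Without read counts the depth behind a peak is unknown, and fewer transcripts cannot be told apart from less m6A per transcript.

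FTO, the gene targeted by the shRNA, had 4 peaks in shCtrl cells and 1 in shFTO cells. The 4 control peaks were short and low in score. They lay on the plus strand of chromosome 16 at chr16:53844052-53844129 (78 bp, score 102.54, rank 30.3%), chr16:53907749-53907777 (29 bp, score 119.91, rank 36.8%), chr16:53913756-53913899 (144 bp, score 52.86, rank 1.5%) and chr16:53945168-53945271 (104 bp, score 55.82, rank 4.1%). All 4 ranked in the lower part of the control list, and they covered 355 bp together. The single knockdown peak, at chr16:53859776-53860403, was wider than any of them at 628 bp, with a score of 473.46 and a rank of 68.2%. It overlapped none of the control peaks, the nearest of which was 15.6 kb away. All 5 peaks had midpoints from 25.6% to 49.7% of the 419 kb locus, counted from its 5′ limit. This length includes introns, and where the peaks lie in the transcript was not determined. A peak list does not measure mRNA level, so these counts are no check of the knockdown. For that check the authors used a western blot of FTO protein in knockdown and control RWPE1 cells. FTO-IT1, a lncRNA gene, overlaps FTO on the same strand in RefSeq, and whether any of these peaks lies in it was not determined.

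ALKBH5, the other eraser, had no peak in shCtrl cells and 1 in shFTO cells. The knockdown peak lay at chr17:18086867-18088327 on the plus strand, was 1461 bp wide and began 0.9 kb from the 5′ limit of the locus. Its score of 3100 is the value shared by 611 knockdown peaks, and it ranked at 96.8%, the highest rank of all 25 peaks of the 10 genes. In the control list the nearest peak on the same strand ended 82.0 kb before the locus. Peaks of the erasers thus covered 355 bp in control cells and 2089 bp after FTO knockdown, with no overlap between the lists.

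The catalytic pair had 2 peaks in each condition. METTL3 had no peak in shCtrl cells and 1 in shFTO cells, at chr14:21979266-21979517 on the minus strand. It was 252 bp wide, had a score of 432.69 and a rank of 66.4%, and began 0.5 kb from the 5′ limit of the locus. METTL14 had 2 peaks in shCtrl cells. The first, at chr4:119606525-119606755, began 0.5 kb from the 5′ limit of the locus, was 231 bp wide and had a score of 176.82 (rank 51.2%). The second, at chr4:119626766-119626976, was 211 bp wide with a score of 80.98 (rank 20.7%). In shFTO cells METTL14 had 1 peak, at chr4:119609078-119609166, which was 89 bp wide with a score of 266.5 (rank 54.8%). It lay 2.3 kb from the first control peak and overlapped neither. METTL14 was 1 of 2 genes with fewer bases under peaks in shFTO cells (89 bp against 442 bp), the other being VIRMA.

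ALKBH5, METTL3, METTL14 and CBLL1 thus had a peak within 1 kb of the 5′ limit of their loci, in the shFTO list for ALKBH5, METTL3 and CBLL1 and in the shCtrl list for METTL14. How often peaks of the whole lists lie this near a gene start was not determined, so no excess can be read from these peaks. A 5′ limit is not a transcription start. Beside the RefSeq genes, the loci of ALKBH5, METTL3 and CBLL1 were 1.9, 0.8 and 1.5 kb longer. That of METTL14 was 3.0 kb shorter. How far these peaks lay from the transcription starts was not determined. Because m6Am stands at the first transcribed base, the annotated start sites of the erasers and of the catalytic pair are shown, with FTO as the gene of the 4 that had no peak near its 5′ limit. Each line gives 40 bases of the coding strand from RefSeq (GRCh38.p14, another build than that of the peaks), 20 before the start and 20 from it, with the first transcribed base in a capital. The windows are chr16:53704136-53704175 (plus strand) for FTO, chr17:18183808-18183847 (plus) for ALKBH5, chr14:21511321-21511360 (minus) for METTL3 and chr4:118685372-118685411 (plus) for METTL14.
FTO: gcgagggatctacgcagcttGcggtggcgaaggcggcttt
ALKBH5: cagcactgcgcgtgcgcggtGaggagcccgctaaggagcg
METTL3: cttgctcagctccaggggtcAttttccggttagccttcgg
METTL14: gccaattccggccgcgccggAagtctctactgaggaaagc
The annotated first base was A in METTL3 and METTL14 and G in FTO and ALKBH5. Over all 35116 start-site windows of the table it was A in 44.4% and G in 33.6%. The letters GGAC, a core of the m6A consensus, were searched on the transcribed strand of the first 50 bases and were present in ALKBH5 and absent from the other 3 genes, against 18.9% of all windows. Whether m6Am contributes to any of the peaks was not tested.

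WTAP gave the only pair of peaks among the 10 genes with the same edges in both conditions. The pair lay at chr6:160160022-160160077 on the plus strand and was 56 bp wide in each list. Its score was 589.24 (rank 79.4%) in shCtrl cells and 440.5 (rank 66.7%) in shFTO cells. Over all 2037 overlapping pairs of the lists, both edges were the same in 54.7%. The shFTO list held a second WTAP peak at chr6:160176060-160176767, which was 708 bp wide with a score of 1908.7 (rank 89.7%). Its end lay 1.2 kb from the 3′ limit of the locus, and the nearest control peak was the shared one, 15982 bp away.

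VIRMA, a large scaffold protein of the complex, held the other 2 shared pairs. The first pair lay on the minus strand at chr8:95523302-95523957 in shCtrl cells (656 bp, score 79.75, rank 20.1%) and at chr8:95523206-95523957 in shFTO cells (752 bp, score 210.49, rank 48.8%). The second lay at chr8:95531236-95531704 in shCtrl cells (469 bp, score 1471.13, rank 90.6%) and at chr8:95531213-95531704 in shFTO cells (492 bp, score 534.55, rank 70.8%). Both pairs had the same upper edge, which is the 5′ edge on this strand, and the knockdown peaks reached further in the 3′ direction by 96 bp and 23 bp. Each rank refers to its own list, so the ranks of a pair do not measure a change in m6A level. Among all overlapping pairs the shFTO peak was the wider in 33.9% and the shCtrl peak in 11.4%. The third control peak of VIRMA, at chr8:95541298-95541570, was 273 bp wide with a score of 2675.52. At a rank of 95.1% it was the highest-ranked control peak of the 10 genes, and it had no partner in the shFTO list, whose nearest peak was 9.6 kb away.

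ZC3H13 had no peak in shCtrl cells and 5 in shFTO cells, more than any other of the 10 genes in either list. In 5′ to 3′ order on the minus strand, the peaks began 10.6, 32.3, 49.5, 67.1 and 95.6 kb from the 5′ limit of the 99 kb locus. The strongest was the fourth, at chr13:46559432-46559896, with a width of 465 bp, a score of 1369.29 and a rank of 86.2%. The widest was the last, at chr13:46530718-46531432, with 715 bp, a score of 137.06 and a rank of 35.9%. The other 3 were 119, 109 and 198 bp wide in the same order and had scores of 350.35, 410.66 and 286.78, at chr13:46616292-46616410, chr13:46594584-46594692 and chr13:46577274-46577471. In the control list the nearest peak on the same strand lay 334.3 kb before the 5′ limit of the locus, at a rank of 15.6%.

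CBLL1 had no peak in shCtrl cells and 2 in shFTO cells, on the plus strand. The first, at chr7:107384258-107384621, began 0.3 kb from the 5′ limit of the locus, was 364 bp wide and had a score of 70.24 (rank 13.2%), the lowest rank of the knockdown peaks of the 10 genes. The second, at chr7:107398588-107399884, was 1297 bp wide with a score of 2524.77 (rank 92.2%) and ended 3.1 kb from the 3′ limit. The nearest control peak on the same strand was 561.0 kb away.

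RBM15 and RBM15B, the RNA-binding recruiters, had 0 peaks in each list. The nearest peaks on the RBM15 strand lay 293.5 kb (shCtrl) and 352.8 kb (shFTO) from the locus. For RBM15B, a control peak of 381 bp at chr3:51426336-51426716 (score 180.87, rank 51.7%) ended 1.3 kb before the 5′ limit of the locus, and a knockdown peak of 390 bp (score 607.95, rank 73.3%) ended 5.1 kb before it. Both lay outside the locus and were not counted, and which gene they lie in was not determined.

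The peaks were then set beside their whole lists. Of the 10 control peaks 7 had no partner in the shFTO list (95% Wilson interval of this share 39.7% to 89.2%, which covers counting error only), and the same was true of 79.8% of all control peaks. Of the 15 knockdown peaks 12 had no partner in the shCtrl list (54.8% to 93.0%), against 80.4% of all knockdown peaks. The shares of list-specific peaks in the writer and eraser genes were thus close to those of the lists as a whole. Both intervals take the peaks as independent, although 4 control peaks lay in FTO and 5 knockdown peaks in ZC3H13. They may therefore be too narrow, and they do not describe variation between cultures. Of the 12 knockdown peaks without a partner, 9 lay in the 4 genes that had no control peak, and the other 3 lay in FTO, METTL14 and WTAP.

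The median rank was 33.6% for the 10 control peaks and 66.4% for the 15 knockdown peaks, where the median of each list is 50% by construction. This gap rested on FTO, whose 4 control peaks ranked low. Without FTO the median rank was 65.3% over 6 control peaks and 65.8% over 14 knockdown peaks, and the number of peaks above the median of their list was 4 and 11. By group, the erasers ranked from 1.5% to 36.8% in shCtrl cells, all in FTO, and stood at 68.2% (FTO) and 96.8% (ALKBH5) in shFTO cells. The regulatory subunits had a median rank of 85.0% over 4 control peaks, 3 of them in VIRMA. Over 11 knockdown peaks, 5 of them in ZC3H13, it was 65.1%. The groups thus rest on different genes in the 2 lists. The peaks had a median width of 177.5 bp in the control list and 465 bp in the knockdown list, beside 212 bp and 242 bp in the whole lists. Without FTO the median widths were 252 bp and 414.5 bp.

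Peaks covered 2251 bp of the 10 genes in control cells and 7705 bp in knockdown cells, a ratio of 3.42, beside a ratio of 1.34 for the whole lists. How far this ratio varies over other sets of 10 genes was not determined, so it cannot be called particular to these genes. In the 4 genes with peaks in both lists the ratio was 1.21, with 2251 bp in 10 control peaks and 2725 bp in 6 knockdown peaks. The remaining 4980 bp lay in the 4 genes with knockdown peaks alone, mostly in CBLL1 (1661 bp), ZC3H13 (1606 bp) and ALKBH5 (1461 bp). The genes were sorted by the peaks themselves, so these 4 add to the knockdown side only by construction.

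The names of the peaks carry numbers that increase along the genome without exception in both lists, up to 173974 in shCtrl and 161598 in shFTO, and many numbers are skipped between listed neighbours. The number of listed peaks was 5.8% of the highest number in shCtrl and 6.39% in shFTO, so most numbers were skipped throughout the lists. Skipped numbers could belong to peaks that were called on either strand and then left out, but the selection is not given in the sources used here and this was not tested. In FTO, 12 numbers ran from the first to the last control peak, of which 8 were skipped. In VIRMA 5 control numbers and 1 knockdown number were skipped, in METTL14 7 control numbers, in WTAP 7 knockdown numbers, and in the knockdown list 5 in CBLL1 and 18 in ZC3H13. Where a list had no peak in a locus, the neighbouring listed peaks on both sides of the locus were separated by skipped numbers, 34 for ALKBH5, 30 for METTL3, 92 for ZC3H13 and 106 for CBLL1 in the shCtrl list. The fewest were skipped at RBM15B, 6 control numbers and 5 knockdown numbers over the locus and its flanks. In none of the 10 loci was this number 0 in either list, so whether a locus without a listed peak had no called peak cannot be read from the lists.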

How the data were processed

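MeRIP-seq was made from 4 libraries, 1 IP and 1 input library each for shCtrl and shFTO RWPE1 cells. The submitters' processing notes name cutadapt 1.9.3, HISAT2 and hg19. The authors deposited 1 list per condition, with the start, end, strand, name and score of each peak. The names are in the form MACS writes, and the peak caller settings, the selection of the listed peaks and the scale of the score are not given in the sources used here. Depth is unknown.

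Peaks were assigned to loci in Python 3.11.15 with pandas 2.3.3, and the steps were tested on simulated peaks. The loci lay on the RefSeq chromosome for 10 of 10 genes and on its strand for the 9 listed there, with lengths from 3.0 kb shorter to 1.9 kb longer than the RefSeq genes, METTL14 being the shorter. Peaks of the 2 lists were counted as partners when they had 1 bp or more in common, on either strand. Wilson intervals came from SciPy 1.17.1. All 10 genes and all of their peaks are named. Without an hg19 annotation, the place of a peak in exons, introns, coding or untranslated regions was not determined for any gene. The genes and lists were chosen with earlier results of these data known. Alternatives concerned the strand, the limits of the loci, the overlap, the score and merging, and a count or value was taken as moved when it changed by more than 1.5 times. Positions are 1-based.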

Additional observations from a re-analysis of the deposited data

How the results depend on the processing

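With 1 library pair per condition, leaving out a replicate was not possible. Of 44 values recomputed with another choice of strand, locus limits, overlap, score or merging, 42 stayed within 1.5 times the reported value. This is no sign of stability, because the choices of strand, locus limits, overlap and merging left every value exactly the same. No peak lay on the opposite strand or crossed a limit of its locus. Only the choices of score changed any value. Keeping only the higher-scoring part of each list, from its median upward, left 4 control peaks in the 10 genes, of which 2 had no partner in the whole shFTO list, and 12 knockdown peaks. The ratio of bases under peaks was 2.77 without the peaks at a score of 3100 or more. Leaving out a gene was chosen after seeing the data. Without FTO there were 6 control peaks at a median rank of 65.3%, 3 of them without a partner, and without ZC3H13 there were 7 knockdown peaks without a partner. The ratio of bases was 2.71 without ZC3H13 and 3.73 without FTO. Without ALKBH5 it was 2.77, the same calculation as above, because its peak was the only one of the 10 genes at a score of 3100 or more. The unknown depth and the unstated selection of peaks limit what a peak present in 1 list shows.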
